A study of Mus musculus with 11 samples.

Results

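The 9 transcription factor genes that mark regions of the developing forebrain, described here, were chosen by symbol, with earlier results of these data known, which makes 9 of the 53801 genes in the deposited tables. They were Emx1, Emx2, Lhx2, Pax6 and Nr2f1, which act in the dorsal telencephalon, Zbtb20 and Prox1, which act in the hippocampus, and Dlx1 and Dlx2, which act in the ventral telencephalon. All 9 symbols were matched to a gene identifier through the GENCODE annotation, and each was present in all 11 tables. The cells were primary neural stem cells (NSCs) taken from the hippocampus of mouse embryos and grown in culture. They received either 1 µM 4HBP or its EtOH vehicle (control) for 7 days, in one of a pair of media. Proliferation medium holds the mitogens EGF and bFGF, under which NSCs go on dividing. Differentiation medium lacks both mitogens and holds more of the B27 supplement. In proliferation medium the treated and control groups had 3 libraries each, and in differentiation medium the treated group had 3 and the control group 2. The compound is 4-hydroxybenzophenone in the paper and 4-Hydroxybenzoic acid in the sample labels. The mice bought for the study were C57BL/6, and the NSCs came from embryos at mid-gestation, per the paper. The sex and genotype of the embryos are not given in the sources used here, and nothing says that the replicates of a group were separate cultures, so that the p-values measure the spread between these samples, which may be technical.

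The telencephalon is divided early into a dorsal part, which gives rise to the cortex and hippocampus and their glutamatergic neurons, and a ventral part, which gives rise to GABAergic interneurons and the striatum. Emx1, Emx2, Lhx2 and Pax6 encode homeodomain proteins of dorsal progenitors, and Nr2f1 (COUP-TFI) encodes an orphan nuclear receptor that patterns the cortex. Zbtb20 encodes a zinc finger repressor required for hippocampal identity, and Prox1 a homeodomain protein of dentate granule cells and their progenitors. The neighbouring genes Dlx1 and Dlx2 encode homeodomain proteins of GABAergic lineages, and they act upstream of Dlx5, Dlx6 and the GABA-synthesising enzymes.

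The total expected count per library was between 20822921 and 23438463, so that 3 counts, taken as the smallest detectable amount, correspond to 0.128 to 0.144 CPM, a count scaled to the library total. This floor covers counting error only. No library repeated another, as the mean chi-square per gene between replicates was between 2.58 and 24.5. Replicate 3 of 4HBP in proliferation medium stood apart from its group, with a mean chi-square of 24.5 and 22.1 against the other 2 libraries, which differed from each other by 5.44. Levels are given as normalised CPM (with TMM-scaled library totals), and a gene was called at a Benjamini-Hochberg adjusted p under 0.05 over all genes tested with edgeR's quasi-likelihood test. All 8 neural stem cell markers (among them Nes, Sox2 and Vim) had a mean of 1 TPM or more in each group. So did all 7 astrocyte markers and, by group, 7 or 8 of the 8 neuron and of the 8 oligodendrocyte lineage markers. This level therefore does not set stem cells apart from those cell types.

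The promoter windows of the genes are shown for the members on which the results turn, namely the neighbours Dlx1 and Dlx2, which were both higher in differentiation medium, and the 2 annotated starts of Nr2f1, whose mean transcript length differed between media. RefSeq windows of GRCm38.p6 hold 250 bases before and 50 bases after a start, and 13 windows were matched to the 9 genes. Capitals mark the CG dinucleotides. The windows are chr2:71529195-71529494 on the plus strand (Dlx1), chr2:71546705-71547004 on the minus strand (Dlx2), and chr13:78198824-78199123 and chr13:78196400-78196699 on the minus strand (upstream and downstream start of Nr2f1).
Dlx1: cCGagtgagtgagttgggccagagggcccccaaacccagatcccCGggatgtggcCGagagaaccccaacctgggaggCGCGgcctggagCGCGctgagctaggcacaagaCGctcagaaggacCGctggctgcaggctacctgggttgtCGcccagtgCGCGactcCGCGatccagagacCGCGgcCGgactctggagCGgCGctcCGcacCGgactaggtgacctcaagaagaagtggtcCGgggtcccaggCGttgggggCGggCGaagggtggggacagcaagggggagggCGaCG
Dlx2: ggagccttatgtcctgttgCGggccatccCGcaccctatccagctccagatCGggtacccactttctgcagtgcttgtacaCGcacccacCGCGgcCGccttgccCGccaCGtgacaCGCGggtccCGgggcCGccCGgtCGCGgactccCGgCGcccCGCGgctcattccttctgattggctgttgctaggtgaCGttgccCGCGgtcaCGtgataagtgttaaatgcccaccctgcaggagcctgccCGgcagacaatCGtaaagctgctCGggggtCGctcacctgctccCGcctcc
Nr2f1 upstream start: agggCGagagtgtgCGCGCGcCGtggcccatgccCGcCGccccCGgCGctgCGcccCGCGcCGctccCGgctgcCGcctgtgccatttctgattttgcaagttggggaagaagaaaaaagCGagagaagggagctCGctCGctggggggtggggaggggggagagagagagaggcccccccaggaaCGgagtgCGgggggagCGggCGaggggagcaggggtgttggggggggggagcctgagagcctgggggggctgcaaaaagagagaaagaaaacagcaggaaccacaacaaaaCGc
Nr2f1 downstream start: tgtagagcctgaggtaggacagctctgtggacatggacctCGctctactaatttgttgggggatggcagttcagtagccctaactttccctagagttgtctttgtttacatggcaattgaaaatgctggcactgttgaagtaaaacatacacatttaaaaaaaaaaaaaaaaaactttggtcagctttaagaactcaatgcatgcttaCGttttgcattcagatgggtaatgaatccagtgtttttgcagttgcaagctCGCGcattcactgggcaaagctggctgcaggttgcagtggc

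The windows of Dlx1 and Dlx2 held 27 and 29 CG dinucleotides, and that of the upstream Nr2f1 start held 23. The downstream Nr2f1 start, 2424 bases away, held 4. Over all 32851 windows the median was 7, with quartiles of 3 and 20, and 94.6% held at least 1. The letters TAATTA, a core bound by many homeodomain proteins and the same on both strands, were in 1 of the 13 windows, that of Emx2 at chr19:59458440-59458739, against 5.29% of all windows. Neither the Dlx1 nor the Dlx2 window held them. Within the annotation Dlx1 (chr2:71528113-71533981, plus strand) and Dlx2 (chr2:71543408-71546754, minus strand) point towards each other, with 9426 bases between their ends.

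All but 1 of the 9 genes were clearly detected in every library, and Emx1 was the exception. In the control libraries in proliferation medium, the deposited TPM (a level per transcript length) was 64.2 ± 14.3 (SD, n = 3) for Pax6, 45.6 ± 3.82 for Lhx2, 40.7 ± 6.06 for Emx2, 19.2 ± 1.73 for Nr2f1, 12.9 ± 1.73 for Zbtb20, 9.88 ± 2.55 for Dlx1, 9.30 ± 0.865 for Prox1 and 6.57 ± 0.902 for Dlx2. In this order, the library ranges of Lhx2 and Emx2 overlapped, as did those of Zbtb20, Dlx1 and Prox1 from each to the next. Emx1 was at 0.0867 ± 0.103 TPM. In the control libraries in differentiation medium (n = 2), Lhx2 stood at 56.3 ± 1.02 TPM, Dlx1 at 53.4 ± 7.65, Zbtb20 at 47.8 ± 2.93, Nr2f1 at 38.0 ± 3.65 and Pax6 at 36.2 ± 0.297. Dlx2 (17.1 ± 0.926), Emx2 (14.47 ± 1.41), Prox1 (9.09 ± 1.08) and Emx1 (0.865 ± 0.205) were lower. Dlx1 thus stood above 81.7% of the detected protein-coding genes in differentiation medium and above 50.1% in proliferation medium, in controls. Pax6 stood above 87.5% in proliferation medium and 73.5% in differentiation medium.

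The order of the levels depended on the length used. When the normalised count was divided by the merged exons of each gene in place of the expressed transcript length, Lhx2 ranked first in all 4 groups, Emx2 second in both proliferation groups and Zbtb20 second in both differentiation groups. Pax6, whose 26 annotated transcripts merge to 11694 bases, moved from rank 1 to rank 6 in proliferation medium and from rank 5 to rank 8 in differentiation medium. TPM values of the media are also on unequal scales, since mt-Atp8 alone took 13% to 15.9% of all TPM in proliferation medium and 4.48% to 4.79% in differentiation medium. The tests between media below are therefore on counts. Summed TPM values of gene lists and the TPM of Nr2f1, given below for both media, carry these unequal scales.

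**Figure D1:**
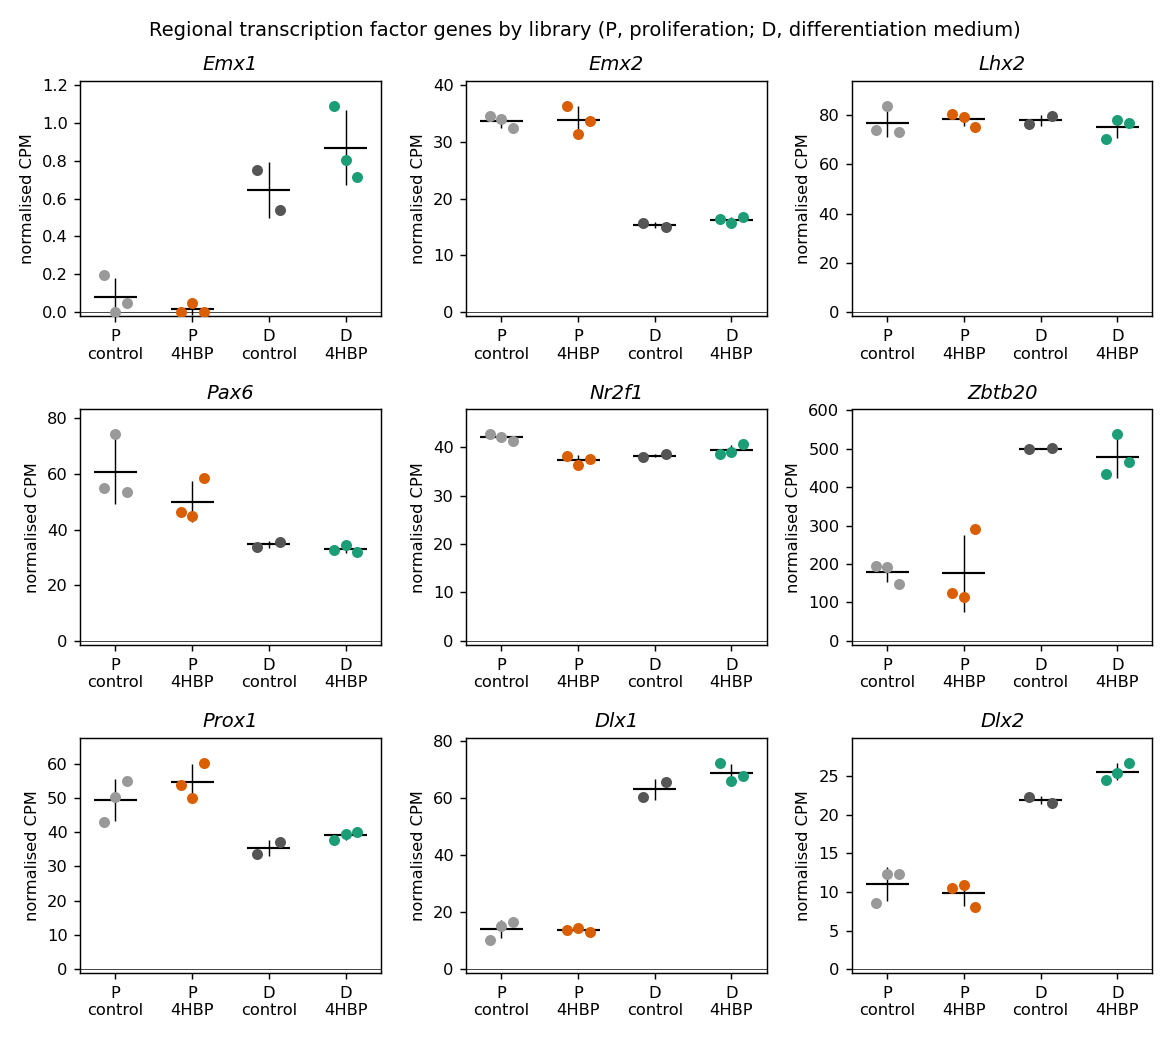
Normalised CPM (vertical axes, from 0) of the 9 genes in each of the 11 libraries, with points for libraries, horizontal bars for group means and vertical bars for 1 SD. Dlx1, Dlx2, Zbtb20 and Emx1 are higher in all differentiation libraries than in any proliferation library, and Emx2, Pax6 and Prox1 are lower in all of them.

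Culture medium set apart most of these genes. Between differentiation and proliferation medium, 7 of the 9 were called in controls (4 higher and 3 lower in differentiation medium) and 7 under 4HBP (4 higher and 3 lower), of which Emx1 could only come out higher. The medium also moved most genes of the cells. Of all 15920 genes tested, 61.4% were called in controls (30.8% higher, 30.6% lower) and 67.2% under 4HBP (33.3% higher, 33.8% lower), so that the share of members is near the background. Libraries of the media were fully separated for 8 of the 9 members in controls, against 76.3% of all genes, and for 8 of the 9 under 4HBP, against 71.6%. Emx1 passed the filter on low counts only through the differentiation libraries, where it is higher. Over genes that passed within each medium, 6 of 8 members were called in controls (3 higher, 3 lower) and 6 of 8 under 4HBP (3 higher, 3 lower). Of all 14130 such genes, 62.3% were called in controls (29.3% higher, 33% lower) and 67.9% under 4HBP (31.6% higher, 36.3% lower). The lists of other genes below are counted over such genes.

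Dlx1 showed the largest difference among the well-detected members. Its normalised CPM was 10.4, 15.2 and 16.6 in the proliferation controls and 13.6, 14.6 and 13.2 with 4HBP. In differentiation medium it was 60.6 and 65.7 in controls and 72.4, 65.9 and 67.8 with 4HBP. Every differentiation library lay above every proliferation library, and Dlx1 was 4.49-fold higher in controls (log2 fold change 2.17, SE 0.13, edgeR adjusted p = 2.69e-08) and 4.97-fold higher under 4HBP (2.31, SE 0.12, adjusted p = 4.98e-09).

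Dlx2, its neighbour on chromosome 2, was at 8.54, 12.3 and 12.3 CPM in the proliferation controls and 10.5, 10.9 and 8.01 with 4HBP. In differentiation medium it was at 22.3 and 21.5 CPM in controls and 24.5, 25.4 and 26.7 with 4HBP. The media did not overlap here either. Dlx2 was 1.98-fold higher in controls (log2 0.99, SE 0.15, edgeR adjusted p = 9.22e-05) and 2.60-fold higher under 4HBP (1.38, SE 0.14, adjusted p = 1.66e-06).

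Zbtb20 (chr16:42875881-43642602, plus strand) had the largest SD relative to its mean within a group among the 8 well-detected members, in proliferation medium with 4HBP. It was at 194, 192 and 149 CPM in the proliferation controls and at 123, 113 and 292 CPM with 4HBP, where replicate 3, the library that stood apart, held more than its group's other libraries and more than any control. In differentiation medium it was at 499 and 501 CPM in controls and 434, 538 and 465 CPM with 4HBP, all above every proliferation library. Zbtb20 was 2.80-fold higher in differentiation medium in controls (log2 1.49, SE 0.30, edgeR adjusted p = 7.68e-04) and 2.72-fold higher under 4HBP (1.44, SE 0.27, adjusted p = 4.28e-04), a log2 fold change that was 2.01 without replicate 3 of 4HBP in proliferation medium.

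Emx1 (chr6:85187438-85204462, plus strand) was at or near 0 in proliferation medium, with 4, 0 and 1 counts in controls and 0, 1 and 0 counts with 4HBP. In differentiation medium it had 17 and 13 counts in controls and 25, 19 and 15 counts with 4HBP. The differentiation controls were at 1.01 and 0.72 TPM. The ratio of the summed CPM was 8.32 in controls (exact 95% interval 3.20 to 27.5, counting error only) and 56.0 under 4HBP (exact 95% interval 9.67 to 2250), where the proliferation libraries held 1 count in all.

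Emx2, the dorsal paralog of Emx1, went the other way. Emx2 (chr19:59458372-59465357, plus strand) was at 34.5, 34.0 and 32.3 CPM in the proliferation controls and 36.3, 31.4 and 33.6 CPM with 4HBP. It was at 15.7 and 14.9 CPM in the differentiation controls and 16.4, 15.7 and 16.8 CPM with 4HBP, below every proliferation library. The log2 fold change was -1.13 in controls (SE 0.083, edgeR adjusted p = 1.40e-07) and -1.05 under 4HBP (SE 0.073, adjusted p = 5.04e-08), that is 2.19-fold and 2.07-fold lower in differentiation medium.

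Pax6 (chr2:105668900-105697364, plus strand) was at 54.9, 74.3 and 53.5 CPM in the proliferation controls and 46.5, 45.1 and 58.6 CPM with 4HBP. In differentiation medium it was at 33.9 and 35.5 CPM in controls and 32.8, 34.6 and 31.8 CPM with 4HBP. Its spread was wider in proliferation medium, but the media did not overlap. Pax6 was 1.76-fold lower in differentiation medium in controls (log2 -0.81, SE 0.14, edgeR adjusted p = 2.59e-04) and 1.51-fold lower under 4HBP (-0.60, SE 0.13, adjusted p = 8.94e-04).

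Prox1 (chr1:190118035-190170714, minus strand) was at 43.0, 50.2 and 55.0 CPM in the proliferation controls and 53.7, 49.96 and 60.3 CPM with 4HBP. It was at 33.7 and 37.1 CPM in the differentiation controls and 37.7, 39.5 and 40.2 CPM with 4HBP. Prox1 was therefore lower in differentiation medium, unlike the other hippocampal member Zbtb20, with a log2 fold change of -0.48 in controls (SE 0.10, edgeR adjusted p = 0.00148) and -0.48 under 4HBP (SE 0.092, adjusted p = 4.41e-04).

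Lhx2 and Nr2f1 were not called between media in either arm. Lhx2 (chr2:38339281-38369733, plus strand), which maintains cortical and hippocampal progenitor identity, lay between 73.1 and 83.8 CPM in proliferation medium and between 70.3 and 79.6 CPM in differentiation medium. Its log2 fold change was 0.019 in controls (95% interval -0.14 to 0.18, edgeR adjusted p = 0.843) and -0.062 under 4HBP (95% interval -0.21 to 0.085, adjusted p = 0.436). Nr2f1 (chr13:78188973-78199757, minus strand) lay between 36.2 and 42.7 CPM in proliferation medium and between 38.0 and 40.7 CPM in differentiation medium. Its log2 fold change was -0.14 in controls (95% interval -0.27 to -0.0069, edgeR adjusted p = 0.0637) and 0.079 under 4HBP (95% interval -0.037 to 0.20, adjusted p = 0.208).

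In bulk samples, fewer cells of a type and less RNA per cell cannot be told apart, and markers of other cell states moved with the medium. All 6 cycling cell markers were lower in differentiation medium in both arms, with a summed level of 252.8 to 294.5 TPM in the proliferation controls and 41.3 to 53.9 TPM in the differentiation controls. Under 4HBP the sum was 131.1 to 235.6 TPM in proliferation medium and 54.4 to 66.7 TPM in differentiation medium. Of the 8 oligodendrocyte lineage markers, 5 were higher in controls and 8 under 4HBP (sum 2127 to 2643 against 6371 to 6790 TPM in controls, and 1455 to 2251 against 6394 to 6557 TPM under 4HBP). Of the 7 astrocyte markers, 5 were higher and 2 lower in controls, and 5 higher and 1 lower under 4HBP (sum 2456 to 3090 against 3967 to 4163 TPM in controls, and 1670 to 2151 against 3803 to 4040 TPM under 4HBP). Of the 8 neuron markers, 5 were higher and 1 lower in controls, and 6 higher and 1 lower under 4HBP. Of the 8 neural stem cell markers, 2 were higher and 5 lower in controls, and 2 higher and 6 lower under 4HBP. Of all genes that passed within each medium, 29.3% were higher and 33% lower in controls, and 31.6% higher and 36.3% lower under 4HBP. In all, 62.3% of such genes were called in controls, beside 62.5% of the oligodendrocyte lineage and 75% of the neuron markers. Under 4HBP the share was 67.9%, beside 100% and 87.5%. The part of these cell states in the members' differences was not tested.

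Most markers of microglia and endothelial cells were near 0, while the endothelial marker Flt1 and some mesenchymal and ependymal markers were not. The 6 microglia markers summed to 0.86 to 2.51 TPM and the 6 endothelial markers to 1.2 to 4.24 TPM over all groups, with Cldn5 and Cdh5 at 0 in every library. Flt1 was at a mean of 14.2 CPM in the proliferation controls and 1.88 CPM in the differentiation controls, and at 15.6 and 1.16 CPM under 4HBP. The 6 mesenchymal markers summed to 1.05 to 1.68 TPM in proliferation medium and 9.55 to 11.03 TPM in differentiation medium, of which Pdgfrb held 8.58 to 9.85 TPM, a level like that of Prox1. Pdgfrb was at a mean of 0.724 CPM in the proliferation controls and 28.4 CPM in the differentiation controls, and at 0.146 and 27.9 CPM under 4HBP. The choroid plexus or ependyma list, mostly the ciliated cell gene Foxj1 and Otx2, summed to 35.4 to 57.4 TPM in proliferation medium and 81.7 to 88.2 TPM in differentiation medium. The part of these cells in the members' differences was not tested.

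**Figure D2:**
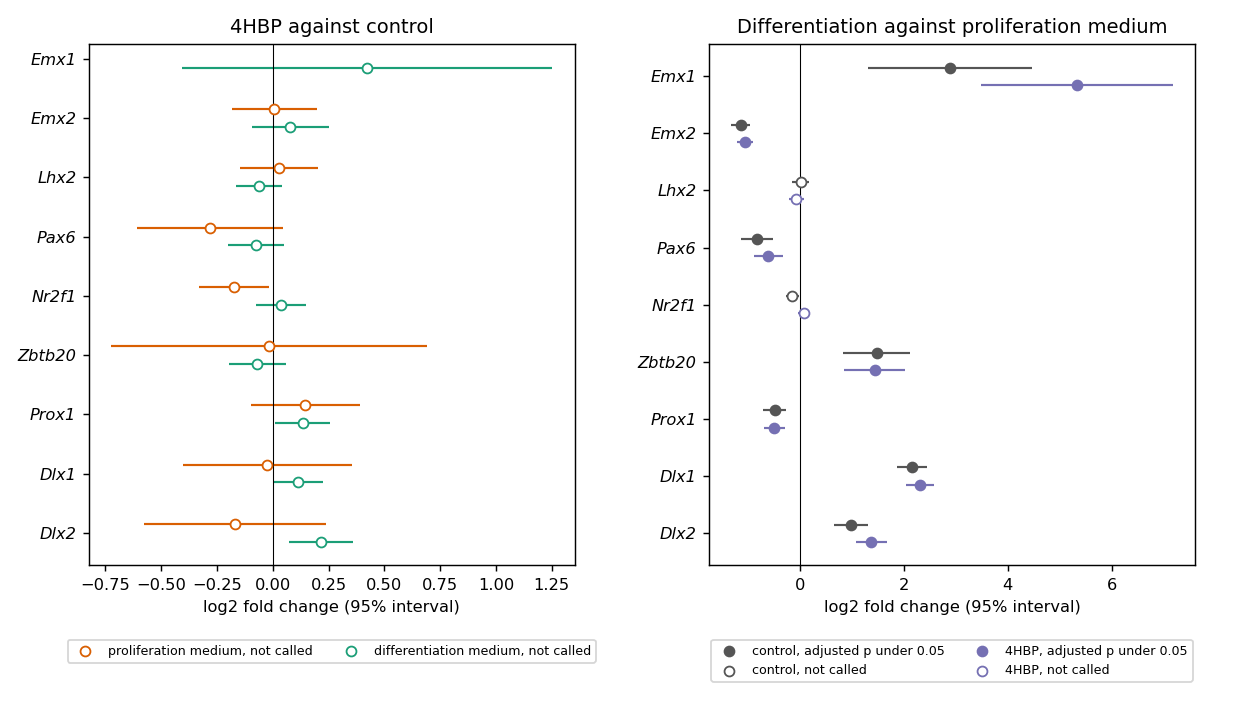
Log2 fold changes (horizontal axes) of the 9 genes with 95% intervals, for 4HBP against control in each medium (left) and for differentiation against proliferation medium in each arm (right). Filled points mark an adjusted p under 0.05. All points on the left are open, and 7 genes are filled on the right in both arms, among them Emx1, which passed the filter only through the differentiation libraries. Emx1 in proliferation medium was too low to test.

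None of the 9 genes was called for the treatment itself. In proliferation medium, 8 members were tested and 0 were called with edgeR, against 7.43% of all 14449 genes tested (3.74% higher and 3.69% lower with 4HBP). DESeq2 also called 0, and 1 of the 8, Nr2f1, had an unadjusted p under 0.05. Limma called 0 members too, but few genes in all in this medium, so that its 0 says little. In differentiation medium, 9 were tested and 0 were called with edgeR or DESeq2, against 2.55% of 15484 genes with edgeR (1.26% higher, 1.29% lower), and 3 of the 9 had an unadjusted p under 0.05. Limma called 0 genes in all in this comparison, so that its 0 members carry no information. The median absolute log2 fold change of the members was 0.087 in proliferation medium and 0.079 in differentiation medium, beside 0.17 and 0.085 over all genes tested. The intervals leave room for effects larger than these medians. In proliferation medium the widest was that of Zbtb20 (95% interval -0.72 to 0.69), and that of Pax6 reached from -0.61 to 0.044.

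In proliferation medium, Nr2f1 was at 42.7, 42.1 and 41.4 CPM in controls and 38.2, 36.2 and 37.5 CPM with 4HBP. All 3 treated libraries lay below all 3 controls, which was so, or so in the other direction, for 1 of the 8 members and for 31.3% of all genes. The log2 fold change was -0.17 (SE 0.070, 95% interval -0.33 to -0.015), and the edgeR adjusted p was 0.165. With the 11 libraries in 1 fit, the same log2 fold change had an adjusted p of 0.0442. Pax6 had a log2 fold change of -0.28 (95% interval -0.61 to 0.044, adjusted p = 0.265), with overlapping groups. Prox1 was at 0.15 (95% interval -0.097 to 0.39) and Dlx2 at -0.17 (95% interval -0.58 to 0.24). Emx2, Lhx2 and Dlx1 lay within 0.03 of 0 on the log2 scale, and their intervals reached from -0.18 to 0.20 for Emx2, from -0.15 to 0.20 for Lhx2 and from -0.40 to 0.35 for Dlx1.

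The 4HBP difference of Zbtb20 in proliferation medium depended on a single library. With all 6 libraries its log2 fold change was -0.017 (95% interval -0.72 to 0.69, edgeR adjusted p = 0.980). Without replicate 3 of 4HBP it was -0.59 (adjusted p = 0.0136), so that Zbtb20 was then called lower, and 1 of 8 members with it. This library was also the highest of its group for Pax6 and Prox1 and the lowest for Lhx2, Dlx1 and Dlx2.

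In differentiation medium, Dlx2 was at 22.3 and 21.5 CPM in controls and 24.5, 25.4 and 26.7 CPM with 4HBP, the largest difference among the well-detected members (log2 0.22, SE 0.068, 95% interval 0.072 to 0.36, edgeR adjusted p = 0.120). Prox1 had a log2 fold change of 0.13 (95% interval 0.010 to 0.26, adjusted p = 0.268), Dlx1 of 0.11 (95% interval 0.0047 to 0.22, adjusted p = 0.292) and Nr2f1 of 0.035 (95% interval -0.077 to 0.15, adjusted p = 0.813). For these 4 of 9 genes every treated library lay above both controls, and 32.9% of all genes had such a separation in one direction or the other. Emx1 had the widest interval (log2 0.42, 95% interval -0.41 to 1.25). Emx2, Lhx2, Pax6 and Zbtb20 had log2 fold changes of 0.079, -0.061, -0.075 and -0.070, each with overlapping groups.

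The difference of the 4HBP effect between media was called for 0 of the 9 members with edgeR, DESeq2 or limma, against 4.49% of 15920 genes with edgeR (2.48% higher and 2.01% lower in differentiation medium). Of the 9, 1 (Nr2f1) had an unadjusted p under 0.05, with a difference of 0.22 (95% interval 0.042 to 0.39, adjusted p = 0.157). The difference was 0.39 for Dlx2 (95% interval -0.055 to 0.84, adjusted p = 0.315). Zbtb20 had a difference of -0.044, which was 0.52 without replicate 3 of 4HBP in proliferation medium (adjusted p = 0.0581). Cycling cell markers had a median log2 fold change of -0.55 with 4HBP in proliferation medium (0 of 6 called) and 0.30 in differentiation medium (1 of 6 called). Over all genes tested the medians were 0.0014 and -0.0010, with 7.43% and 2.55% called. In proliferation medium, 4 of 7 astrocyte markers were called lower with 4HBP, beside 3.69% of all genes tested. The part of cycling and astrocyte states in the members' values was not tested.

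The deposited transcript length of Nr2f1 differed between media, while its count was not called. The deposited length of a gene is the mean length of its transcripts, weighted by their estimated share. For Nr2f1 it was 2869, 3127 and 3126 bases in the proliferation controls and 3184, 3077 and 3080 bases with 4HBP, close to its longest annotated transcript of 3207 bases. In differentiation medium it was 1811 and 2064 bases in controls and 1901, 2044 and 2028 bases with 4HBP, which is below the second longest transcript of 2588 bases, the remaining 4 being 368 to 991 bases long. No library of one medium reached the other. With counts of 749 to 874 and 858 to 923, the deposited TPM of Nr2f1 was 16.1 to 21.1 in proliferation medium and 35.5 to 40.6 in differentiation medium. Its mean TPM in differentiation medium was 2.08 times that in proliferation medium, its mean length 0.64 times and its normalised CPM 0.982 times. The TPM ratio also holds the unequal TPM scales of the media, so that the length alone does not account for it.

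Among the 9 genes, all of which have more than 1 transcript, the deposited length did not overlap between media for 3 (Lhx2, Pax6 and Nr2f1), against 20.4% of 12614 such genes. It was also over 1.5 times apart for 1 of them, Nr2f1, against 1.66%. Pax6 went the other way, with 1312 to 1507 bases in proliferation medium and 1747 to 1953 bases in differentiation medium. Lhx2 differed little, with 2311 to 2410 and 2463 to 2600 bases. Emx2 was at 1089 to 1638 and 1470 to 2103 bases, and its media overlapped. These lengths are estimates of how fragments are shared among transcripts, have no test here, and could not be checked against read positions.

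**Figure D3:**
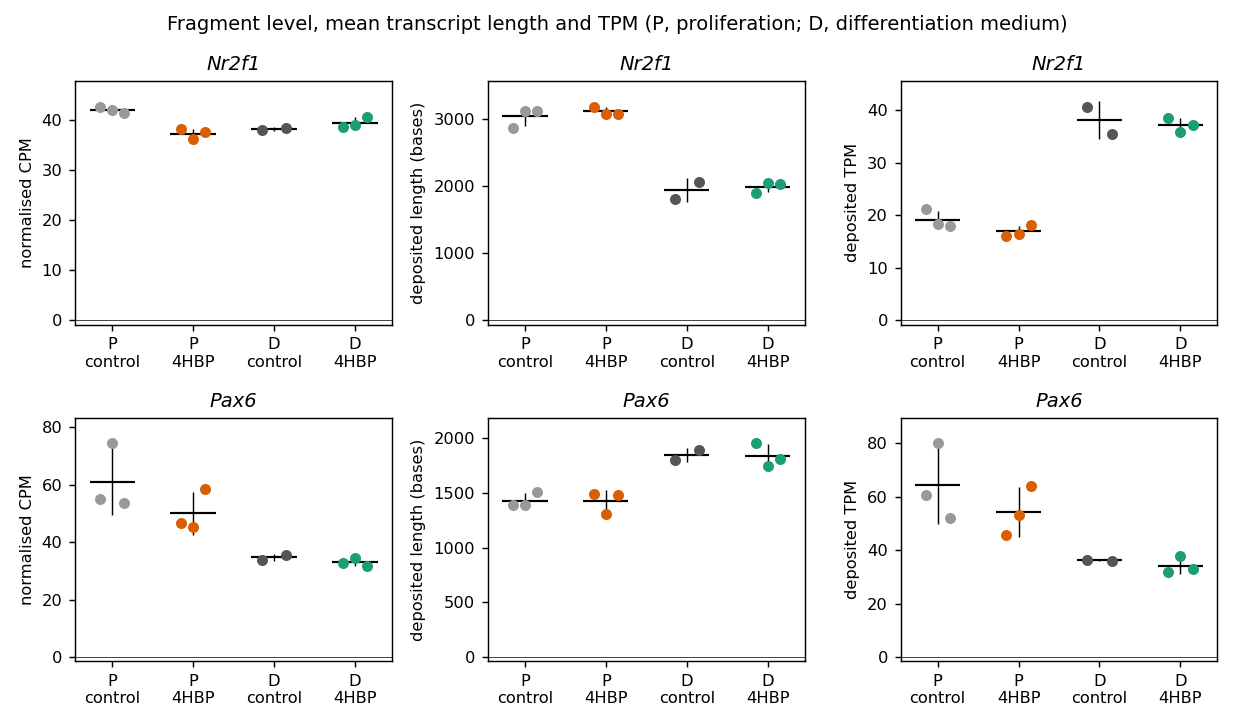
Normalised CPM, deposited length in bases and deposited TPM (vertical axes, from 0) of Nr2f1 (top) and Pax6 (bottom) in each library, with points for libraries, horizontal bars for group means and vertical bars for 1 SD. Nr2f1 has nearly level CPM, a length of 1811 to 2064 bases in differentiation medium against 2869 to 3184 bases in proliferation medium, and a TPM that moves the opposite way to the length.

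Several members share their locus with antisense genes, and whether the counting used strand is not given in the sources used here, so that reads of such pairs may not be separable. Emx2os overlaps Emx2 by 264 bases and had 63 to 148 counts. It was lower in differentiation medium along with Emx2, with a log2 fold change of -1.09 in controls (SE 0.17, edgeR adjusted p = 1.21e-04) and -0.98 under 4HBP (SE 0.15, adjusted p = 8.16e-05). Dlx1as spans all 5869 bases of Dlx1 and had 1 to 48 counts, with a mean of 3.67 counts in the proliferation controls and 21.0 in the differentiation controls, and of 2.00 and 36.7 under 4HBP. It passed the filter on low counts only through the differentiation libraries, so that no test is given. A830082K12Rik, antisense to the 5′ part of Nr2f1 over 1741 bases, had 152 to 317 counts. It was lower in differentiation medium under 4HBP (log2 -0.53, SE 0.16, adjusted p = 0.00868) and at -0.34 in controls (adjusted p = 0.124). Prox1os overlaps Prox1 by 419 bases, had 4 to 18 counts and was not called. The other 12 overlapping genes had at most 11 counts in any library.

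Related genes of the same families were counted alongside. Dlx5, another gene of the Dlx family, had 22 to 34 counts in proliferation medium and 142 to 167 in differentiation medium, and was higher by a log2 fold change of 2.22 in controls (SE 0.20, edgeR adjusted p = 7.25e-07) and 2.28 under 4HBP (SE 0.18, adjusted p = 2.14e-07). Dlx6 had 2 to 12 counts in proliferation medium and 23 to 36 in differentiation medium, through which alone it passed the filter. Nr2f2 (COUP-TFII), the paralog of Nr2f1, was higher by 0.57 (SE 0.19, adjusted p = 0.0171) and 0.55 (SE 0.17, adjusted p = 0.0106), whereas Nr2f1 was not called. Nr2f6 was higher by 0.74 and 0.60. None of the related genes tested was called for 4HBP in either medium with edgeR, beside 7.43% and 2.55% of all genes tested.

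Other regulators of the dorsal telencephalon were more often lower than higher in differentiation medium. Of 20 genes on this list, 14 passed in each medium, 3 were higher and 9 lower in controls (against 29.3% and 33% of all such genes), and 2 higher and 9 lower under 4HBP (against 31.6% and 36.3%). The median log2 fold change was -0.37 and -0.49, beside -0.015 and -0.033 over all such genes. The Notch effector Hes5 (log2 fold change -3.46, SE 0.38), Dmrt3 (-1.30, SE 0.40) and Sox9 (-1.06, SE 0.075) were lower in controls. Sp8 (1.31, SE 0.28) and Dmrta2 (0.81, SE 0.21) were higher in controls. Under 4HBP Dmrta2 was higher by 0.58 (SE 0.19), while Sp8 was not called. The proneural gene Neurog2, which passed only through the differentiation libraries, had at most 9 counts in proliferation medium and 31 in differentiation medium. Genes of newborn glutamatergic neurons were barely detected, with at most 8 counts of Eomes and 7 counts of Tbr1 in any library.

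Of the 20 hippocampal and dentate regulators, 14 passed in each medium, with 3 higher and 6 lower in controls and 4 higher and 8 lower under 4HBP (median -0.21 and -0.36). That is 64.3% called in controls, near the 62.3% of all such genes, and 85.7% under 4HBP, beside 67.9%. Foxj1 was higher by a log2 fold change of 1.33 in controls (SE 0.17) and Bcl11b, which encodes CTIP2, by 0.80 (SE 0.18). Foxj1 is also the ciliated cell gene of the choroid plexus or ependyma list above. Mef2c (-1.11, SE 0.10), Sox4 (-0.92, SE 0.077) and Nfib (-0.59, SE 0.071) were lower. With 4HBP in proliferation medium, Zbtb18 was higher (log2 0.30, SE 0.073, edgeR adjusted p = 0.0406) and Sox4, a factor of immature neurons, was lower (-0.42, SE 0.090, adjusted p = 0.0274). These were 2 of 15 tested, beside 7.43% of all genes, and 0 of 14 were called in differentiation medium, beside 2.55%.

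The ventral forebrain and GABAergic regulators were split. Of 28 genes, 23 passed in each medium, with 9 higher and 9 lower in controls and 8 higher and 8 lower under 4HBP (median -0.016 and -0.0095). That is 78.3% and 69.6% called, beside 62.3% and 67.9% of all such genes. Another 3 (Dlx6, Lhx6 and Npas1) passed only through the differentiation libraries, where they are higher. Sp9, a factor of striatal and interneuron precursors, was higher by a log2 fold change of 2.51 in controls (SE 0.18) and 2.58 under 4HBP (SE 0.17). Vax1 was higher by 2.94 (SE 0.34) in controls. Lhx6, a factor of medial ganglionic eminence interneurons, had at most 1 count in any proliferation library and up to 44 in differentiation medium. Gsx2, a factor of ventral progenitors, was lower in controls (-1.96, SE 0.45), with at most 36 counts in proliferation and 12 in differentiation medium. Under 4HBP Gsx2 had at most 31 and 32 counts. With 4HBP, 1 of 23 was called in proliferation medium and 0 of 26 in differentiation medium with edgeR. The shares over all genes tested were 7.43% and 2.55%.

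Of 12 genes that GABAergic neurons use, 7 passed in each medium, with 4 higher and 1 lower in controls and 4 higher and 0 lower under 4HBP (median 1.35 and 1.52), beside 29.3% and 31.6% of all such genes higher. Calb2 (calretinin) was higher by a log2 fold change of 2.84 in controls (SE 0.21) and Gad2, a GABA-synthesising enzyme, by 1.87 (SE 0.18). Slc32a1, the vesicular GABA transporter, passed only through the differentiation libraries, with at most 6 counts in proliferation medium and up to 112 in differentiation medium. Of 12 glutamatergic effectors, 7 passed in each medium, with 4 higher and 1 lower in controls and 4 higher and 2 lower under 4HBP (median 0.30 and 0.46). The AMPA receptor gene Gria1 was higher by 4.68 in controls (SE 0.14), whereas the vesicular glutamate transporters Slc17a7 and Slc17a6 had at most 12 and 2 counts in any library. With 4HBP in differentiation medium Gria1 was the 1 gene of 7 called (-0.17, SE 0.042), beside 2.55% of all genes.

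Regulators of other brain regions were mostly absent. In each group between 14 and 18 of the 31 genes of the midbrain, hindbrain, spinal cord and diencephalon had no count. The filter on low counts was passed by 6, with 1 higher and 2 lower in controls and 0 higher and 3 lower under 4HBP. That is 50% called in each arm, below the 62.3% and 67.9% of all such genes. The summed level was 40.6 to 70.1 TPM over all libraries, most of it Nkx2-2, also a factor of the oligodendrocyte lineage, and Otx2. Both were lower in differentiation medium in controls (Nkx2-2 -0.95, SE 0.094, and Otx2 -1.21, SE 0.18). Otx2 is also on the choroid plexus or ependyma list.

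**Figure D4:**
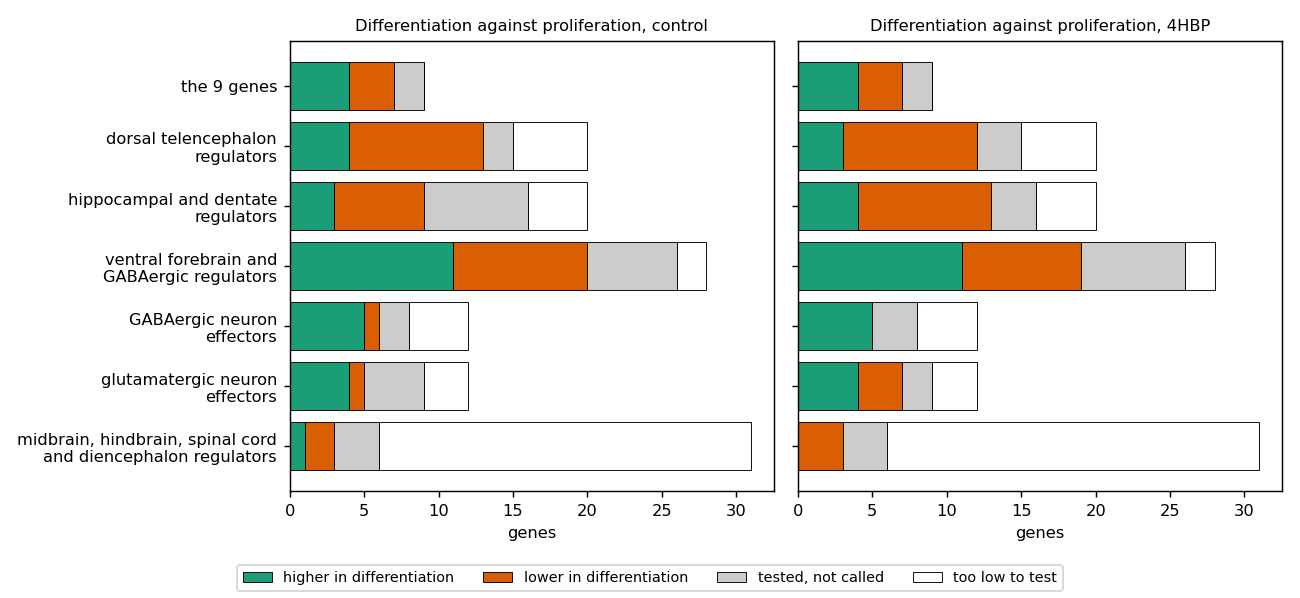
Number of genes (horizontal axes) called higher or lower in differentiation medium, tested but not called, or too low to test, for the 9 genes and 6 lists of regional and neuronal genes, in controls (left) and under 4HBP (right). The bars include genes that passed the filter through 1 medium alone. Dorsal regulators are lower in 9 of 15 tested genes in both arms, and GABAergic effectors are higher in 5 of 8, among them Slc32a1, which passed only through the differentiation libraries.

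The genes with the most similar pattern over the 11 libraries were found among 13643 protein-coding genes by the root mean square (RMS) difference of their centred log2 CPM, as a description. Dlx1 was most like Sfrp1 (RMS 0.11) and Dlx5 (0.15), then Dynll2 (0.19), and Zbtb20 was most like Ptprt (0.16), Kcnq3 (0.16) and Foxj1 (0.19). Pax6 was most like Myo10 (0.091), Ptch1 (0.095) and Sox4 (0.11). Emx2 was most like C530008M17Rik (0.061), Prox1 like Rad17 (0.066), Lhx2 like Ube4a (0.050), Nr2f1 like Npepps (0.032) and Dlx2 like Rida (0.14). Emx1, at the floor in proliferation medium, had no gene nearer than Spata48 (0.34). Among the 9 genes themselves, Dlx1 was nearest to Dlx2, at 0.54, but Dlx2 was nearer to Zbtb20, at 0.51.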

How the data were processed

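RNA of NSCs was sequenced as paired reads in 11 libraries from a stranded mRNA kit. Per the labels and the paper, the authors trimmed the reads with cutadapt and quantified them with RSEM 1.3.0 and Bowtie2 2.2.9 on mm10 (GRCm38) with GENCODE vM17 genes. The authors deposited, for each library, the expected count (fragments assigned to a gene, shared among transcripts and not normalised, 18.6% of values above 0 not whole within 0.005), the TPM (scaled by RSEM for length and depth), the FPKM, which was not used, and the mean and effective length. Fragments that fit several transcripts or genes are shared by estimate, which affects lengths, TPM and overlapping genes.

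Names and positions came from GENCODE vM21 on the same build (99.8% of identifiers matched). Expected counts were rounded, filtered with filterByExpr, TMM-normalised and tested with edgeR 4.0.16 (R 4.3.3), two-sided, with Benjamini-Hochberg adjustment over all genes tested. Treatment was tested within each medium (6 and 5 libraries), since replicates were more variable in proliferation medium (biological coefficient of variation 0.117 against 0.0368). The media and the interaction were tested with all 11 libraries. Alternatives were limma 3.58.1 on log2(CPM+1), as in the paper, DESeq2 1.42.0, voom, library totals, no filter, other sets of libraries, blocking on replicate number and omitting each library in turn. The steps were tested on simulated data.

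The members and lists were chosen with earlier results of these data known. The genes named are the members, their relatives and overlapping genes, the 3 genes of each list with the largest called change in each direction and without overlap, and the 3 genes most like each member. Eomes, Tbr1, Slc17a7, Slc17a6 and the cell markers were named after their values were seen. Some listed genes that the rule would name are not reported here. Scripts used Python 3.11.15 and pandas 2.3.3.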

Additional observations from a re-analysis of the deposited data

Results flagged for a closer look

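No group has enough libraries for a test of outlying values, and none of the 9 members was singled out. The 4HBP effect differed between media, by the interaction term of the edgeR fit, for Sox4 and Zbtb18, among other genes of the regional lists. Sox4 differed by 0.39 on the log2 scale (SE 0.10, adjusted p = 0.0475), as its log2 fold change with 4HBP was -0.42 in proliferation medium and -0.043 in differentiation medium. Zbtb18 differed by -0.42 (SE 0.085, adjusted p = 0.0176), from 0.30 to -0.12.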

How the results depend on the processing

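The 7 member calls between media in controls and their directions held under all alternatives run, and so did those under 4HBP, where limma added Nr2f1 (log2 fold change 0.12, adjusted p = 0.0233). Emx1, among the 7, could only come out higher. The 0 calls for 4HBP in differentiation medium and for the interaction also held, where limma and the 11-library fit called no gene at all in differentiation medium and so say nothing. For 4HBP in proliferation medium the count of members called became 1 (Nr2f1, lower) with the 11 libraries in 1 fit, and lay between 0 and 1 when each library was left out (1, Zbtb20, without replicate 3 of 4HBP).

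Values near 0 changed sign. Dlx1 in proliferation medium was 0.031 with limma and 0.0095 with library totals, and Zbtb20 was 0.029 with library totals. In the interaction, Zbtb20 was 0.033 with limma and 0.079 with voom, and Prox1 was 0.0097 with DESeq2. When each library was left out, the 4HBP effect in proliferation medium ranged from -0.050 to 0.057 for Emx2, -0.0072 to 0.094 for Lhx2, -0.59 to 0.22 for Zbtb20 and -0.20 to 0.11 for Dlx1, the interaction from -0.27 to 0.52 for Zbtb20 and -0.088 to 0.088 for Prox1, and Lhx2 between media in controls from -0.018 to 0.083. The cause was not tested.

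Replicate numbers did not pair the libraries (correlations of deviations between -0.0612 and 0.018). With the replicate block, 0, 0, 0, 7 and 7 members were called in the 5 comparisons, as without it, and 534 genes in place of 1074 for 4HBP in proliferation medium and 745 in place of 395 in differentiation medium.

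The calls over all genes moved more. In proliferation medium they were 1074, and 18 with limma, 1633 with DESeq2, 2668 with 11 libraries in 1 fit, and 107 to 1429 without 1 library. In differentiation medium they were 395, and 778 without a filter, 0 with 11 libraries in 1 fit or limma, and 77 to 288 without 1 library. For the interaction they were 715, and 264 with limma, 1086 with DESeq2, 1616 without a filter, and 124 to 1100 without 1 library. Depth limits Emx1, with at most 25 counts.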
